A study of Caenorhabditis elegans with 8 samples.

Results

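The comparison set wild-type Caenorhabditis elegans against animals in which CstF50 had been targeted by RNAi, in total RNA from which rRNA had been depleted. Its members were the genes of the authors' table for this RNA that had 10 or more normalized counts in the higher condition, which left 16624 of 25640 genes, out of 45269 genes over both tables of the series. The 4 libraries fell into the groups Wt, rRNA depleted RNA (2 libraries) and RNAi CstF50, rRNA depleted RNA (2 libraries). All were young adults from synchronized liquid culture, the labels give the genotypes as Wt and RNAi CstF50, and the design text places wild type on the empty RNAi vector. The other 4 libraries of the series were the same groups in poly(A)-selected RNA. The table names its groups only condition A and condition B, and no header says which is wild type, so every difference is given as B against A and no direction below belongs to a treatment.

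CstF, the cleavage stimulation factor, binds the RNA downstream of a poly(A) signal and helps the cleavage machinery to end an mRNA at the right place. Its subunits are CstF50, encoded in the worm by cpf-1, CstF64, encoded by cpf-2, and CstF77, encoded by suf-1. Many worm genes lie close together in operons, where CstF also acts on the ends of genes inside the cluster, and the series concerns this setting. RNA depleted of rRNA holds mRNA together with transcripts that carry no poly(A) tail, such as most histone mRNAs, small nuclear RNAs (snRNAs, parts of the spliceosome) and small nucleolar RNAs (snoRNAs, guides for the modification of rRNA).

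The authors' deposited table gave 2130 genes an adjusted p under 0.05, which is what "called" means below. Of all genes entered, 8.54% were called higher in B (1420 genes), 4.27% were called lower in B (710 genes) and 12.8% were called in either direction. Most genes differed little: 11892 (71.5%) lay within 2-fold, and the median log2 of B over A was 0.08. Of the called genes, 1130 were 2-fold or more higher and 512 were 2-fold or more lower. A difference of 8-fold or more was computed for 616 genes called higher and for 116 called lower. A mean of 0 was set to a floor for this, 3.04 normalized counts in A and 0.58 in B. Among called genes, 248 were at 0 in A and 30 at 0 in B, so their folds are bounds. At a mean level from 10 to under 30, 212 protein-coding genes were called higher and 5 lower. Whether sequencing depth adds to this asymmetry was not tested. The 349 genes with 10 to 11 normalized counts in the higher condition and the 260 genes with 9 to 10 held 0 called genes each.

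The table gives only the mean of each condition, but each mean is a sum of whole counts divided by the libraries' size factors, and this let the counts of the single libraries be recovered for 16351 of the entered genes. Recovered counts came to 8287830 and 2852379 for the libraries of A, where they cover 12.1% of all normalized counts, and to 35793329 and 15120881 for B, where they cover 42.9%. Below, the deeper library of each condition is named first, and normalized counts are not divided by gene length. Among genes with a mean of 100 or more in a condition, the log2 difference between its libraries had an SD of 0.34 in A and 0.28 in B. All 2031 called genes with recovered counts had libraries of A and B that did not overlap. On those counts limma-voom called 2029 of them in the same direction and 0 in the other. The genes were selected by a p-value from the same libraries, so neither result is independent support for the calls. The share of all entered genes without overlap is not given here. With 2 libraries per condition, a gene can lack overlap without being called. Over all genes with recovered counts limma-voom called 19.9% higher and 15.9% lower, more than the authors' test. No label says that the libraries came from separate cultures, so the p-values measure a spread that may be technical.

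**Figure D1:**
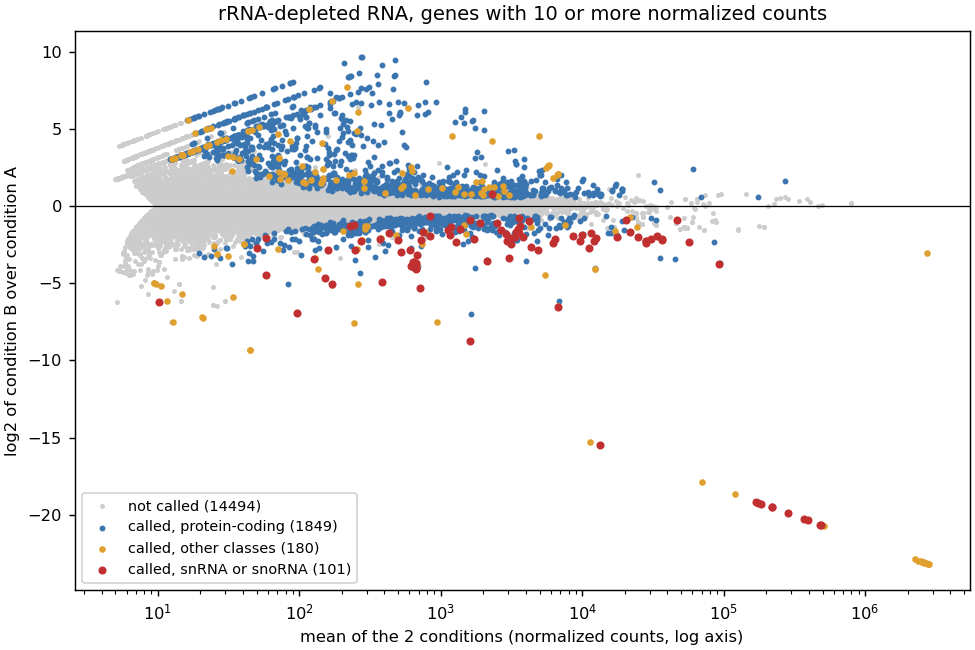
Log2 of condition B over condition A (vertical) against the mean of both conditions in normalized counts (horizontal, log axis) for the 16624 genes entered; a gene at 0 in a condition is drawn at a floor of 3 counts in that condition. The called snRNA and snoRNA genes lie below 0 with 1 exception, and the rRNA and SL1 genes at 0 in B lie at the lower right.

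The RNAi target itself differed between the conditions, while the genes of the other CstF subunits were not called. The gene cpf-1 (in a locus of 4 genes on chromosome II from 8594298 to 8602421, ce10) had 1651 and 1738 normalized counts in A, against 6976 and 10348 in B. Both libraries of B were above both of A, and B was 5.11-fold higher (log2 of 2.35; adjusted p = 0.00296 in the authors' deposited table; limma-voom log2 2.33, SE 0.24, adjusted p = 0.000236). For cpf-2 the libraries held 562 and 538 normalized counts in A and 597 and 661 in B. For suf-1 they held 1432 and 1353 in A against 1650 and 1594 in B. The B values were the higher ones for both genes, but neither was called (adjusted p = 1 for each in the authors' deposited table). Which condition received the RNAi, and whether reads from the RNAi trigger are among the counts of cpf-1, was not tested.

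Of 20 other genes of 3' end processing and transcription termination, 2 were called higher in B and 0 were called lower. Their median log2 was 0.26, beside 0.08 over all genes, but -0.02 relative to protein-coding genes of like exon length. At an unadjusted p under 0.05 the authors' table had 5 higher and 1 lower. Of the 19 with recovered counts limma-voom called 9 higher and 2 lower, beside 19.9% and 15.9% of all such genes. The 2 genes called by the authors' adjusted p were pab-2, a cytoplasmic poly(A)-binding protein, and tag-214, which RefSeq now lists as rbpl-1. The pab-2 libraries held 946 and 935 normalized counts in A and 1792 and 1940 in B, a log2 of 0.99 (adjusted p = 0.000418 in the authors' deposited table). Those of tag-214 held 1029 and 1156 in A against 2239 and 1884 in B, a log2 of 0.92 (adjusted p = 0.000329 in the authors' deposited table). The genes of the cleavage and polyadenylation specificity factor were not called, with log2 values of 0.47 for cpsf-1, 0.36 for cpsf-2, -0.36 for cpsf-3 and 0.04 for cpsf-4. The same was true of pcf-11, a termination factor that binds the polymerase tail (0.38), and of xrn-2, the nuclease that trails the polymerase after cleavage (0.44).

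Among the 12 subunits of RNA polymerase II, the largest subunit was higher in B while several of the small ones were lower. The gene ama-1, which encodes the largest subunit, had 3154 and 2979 normalized counts in A and 5183 and 5110 in B. Its libraries did not overlap, with a log2 of 0.75 (adjusted p = 0.00731 in the authors' deposited table; limma-voom SE 0.07). The subunit gene rpb-9 went the other way, with 539 and 674 normalized counts in A and 248 and 278 in B, a log2 of -1.20 (adjusted p = 0.011 in the authors' deposited table). For rpb-8 the values were 1634 and 2031 in A against 803 and 865 in B, and for rpb-4 they were 692 and 807 in A against 386 and 383 in B. Both were called lower (adjusted p = 0.0145 and 0.0302 in the authors' deposited table), as was rpb-10 with a log2 of -0.87. The 7 subunits not called ran from -0.92 for rpb-12 to 0.15 for rpb-2, and the median of all 12 was -0.53. Relative to protein-coding genes of like exon length the median was -0.42, with 1 of 12 above 0. The called subunits also differed in length: ama-1 has 6020 bases of exon, and the 4 lower ones have 343 to 647. Of 20 splicing factor genes only snr-3, which encodes a Sm protein of the snRNPs, was called, with 1994 and 2140 normalized counts in A and 976 and 1027 in B.

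Log2 values also differed with exon length over all protein-coding genes. Of protein-coding genes with 4000 or more bases of exon, 30.9% were called higher in B and 1.34% lower, with a median log2 of 0.53. Of those with 500 to under 1000 bases, 7.12% were called higher and 6.18% lower, with a median of -0.15. The bins between them lay in order, with medians of 0.00 for 1000 to under 2000 bases and 0.21 for 2000 to under 4000. Genes under 500 bases had a median of -0.02, with 12.4% called higher and 7.33% lower. Across genes, Spearman's rho between exon length and log2 was 0.17 over 14403 protein-coding genes and 0.34 over the 8686 with a mean of 100 or more. It was 0.33 to 0.35 for each of the 4 pairs of a B library with an A library, over 8515 genes, but -0.05 between the libraries of A and -0.00 between those of B. These are descriptions across genes, which are not independent, and they share the same 4 libraries. Exon lengths came from the Ensembl annotation of WBcel235 and not from the authors' gene models, and neither RNA quality nor fragment length is given in the sources used here, so their part in this was not tested.

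**Figure D2:**
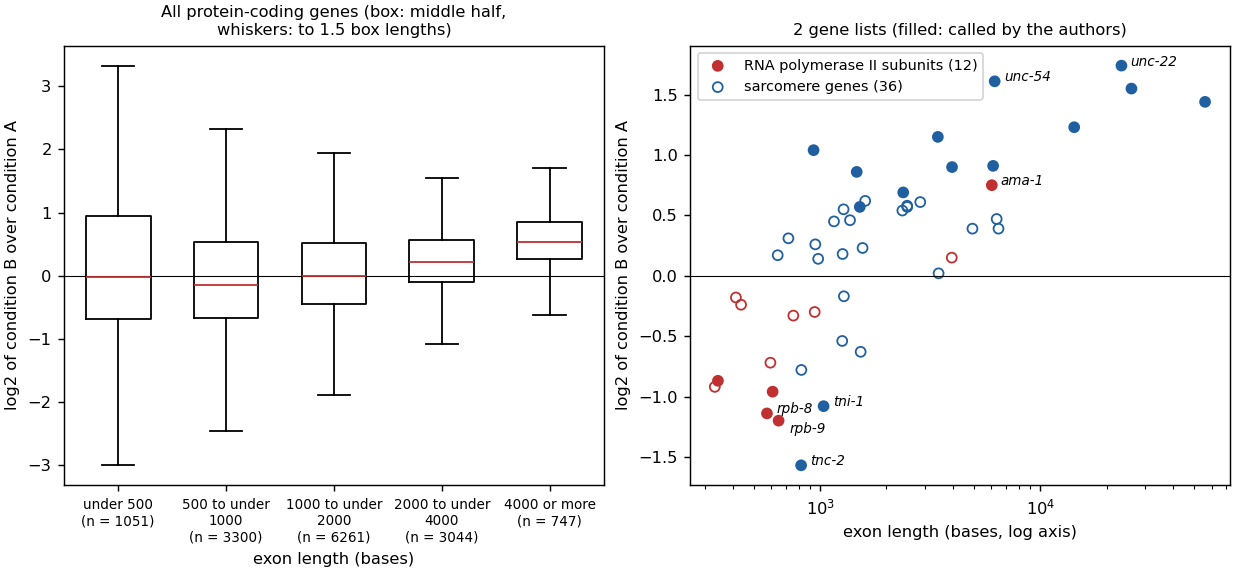
Log2 of condition B over condition A by exon length, for all protein-coding genes in 5 bins (left; red line, median) and for the RNA polymerase II subunits and sarcomere genes (right, log length axis; filled points were called). Medians go from -0.15 at 500 to under 1000 bases to 0.53 at 4000 or more, and ama-1 and unc-22 stand at the long end with positive values while rpb-8, rpb-9 and tnc-2 stand at the short end with negative ones.

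Sarcomere genes called higher were mostly long, and those called lower short. Of 36 sarcomere genes 12 were called higher in B (33.3%, beside 8.54% of all genes) and 2 were called lower (5.56%, near the 4.27% of all genes). The median log2 was 0.51. The gene unc-22, which encodes the giant protein twitchin, had 1678 and 1614 normalized counts in A and 5578 and 5439 in B, a log2 of 1.74 (adjusted p = 1.79e-15 in the authors' deposited table). Its counterpart unc-89, which encodes an obscurin-like protein, had 1548 and 1216 in A against 4055 and 4037 in B, and the titin-like gene ttn-1 had a log2 of 1.44. The 2 troponin genes called lower were tnc-2, a troponin C, with 372 and 341 normalized counts in A and 141 and 100 in B, and tni-1, a troponin I, with 908 and 899 in A against 425 and 429 in B. Their log2 values were -1.57 and -1.08 (adjusted p = 0.000605 and 0.00141 in the authors' deposited table), and in neither did the conditions overlap. The higher genes had a median exon length of 5038 bases and the lower ones of 927. Taken relative to protein-coding genes of like exon length, the list's median was 0.39 rather than 0.51. The muscle myosin gene unc-54 had a log2 of 1.61 and the paramyosin gene unc-15 one of 1.15, and both were called.

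Among the protein-coding genes lower in B, 6 of the 10 named genes with the largest differences overlap small RNA genes. The largest fall among named protein-coding genes was plpr-1 (listed as T06D8.3), with 2717 and 3762 normalized counts in A and 21.5 and 29.2 in B, 128-fold lower in B (adjusted p = 9.68e-19 in the authors' deposited table). An intron of this gene holds the snoRNA gene T06D8.11, which has its own entry with 2703 and 3758 normalized counts in A, against 4.96 and 9.74 in B. The counts of plpr-1 that are left after those of the snoRNA are taken off were 13.5 and 4.01 in A against 16.5 and 19.5 in B, so the snoRNA entry matches 99.7% of what is listed for plpr-1 in A. The second largest fall, cutl-18, a gene of the cuticlin-like family, went from a mean of 13485 to 190. The snoRNA gene T03F7.8, in an intron on the opposite strand, matches 99.3% of its counts in A, and what is left was 102 and 84.3 in A against 42.9 and 52.6 in B.

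Of 428 protein-coding genes that overlap an snRNA, snoRNA or tRNA gene, 47 were called lower in B, beside 3.41% of the 13975 that overlap none. Those 47 were part of the 523 protein-coding genes called lower, of which they were 8.99%, while 43 of the 1326 called higher overlapped such a gene, or 3.24%. The counts could be compared for 32 of these 47, and in 26 of them the small RNA genes held 50% or more of the host's counts in A. The median log2 of those 26 was -1.74 as deposited and -0.19 with the counts of the small RNA genes taken off, and 21 of the 26 then lay within 2-fold. Over all hosts in which a single small RNA gene held 50% or more of the counts in A, it was intronic in 32 of 33, and in 8 of these it lay on the strand opposite to the host. The deposited counts of these genes thus match counts of genes inside their introns, on either strand. Because the counts were taken off after the result was seen, this is a description and no test was run on the remainder.

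**Figure D3:**
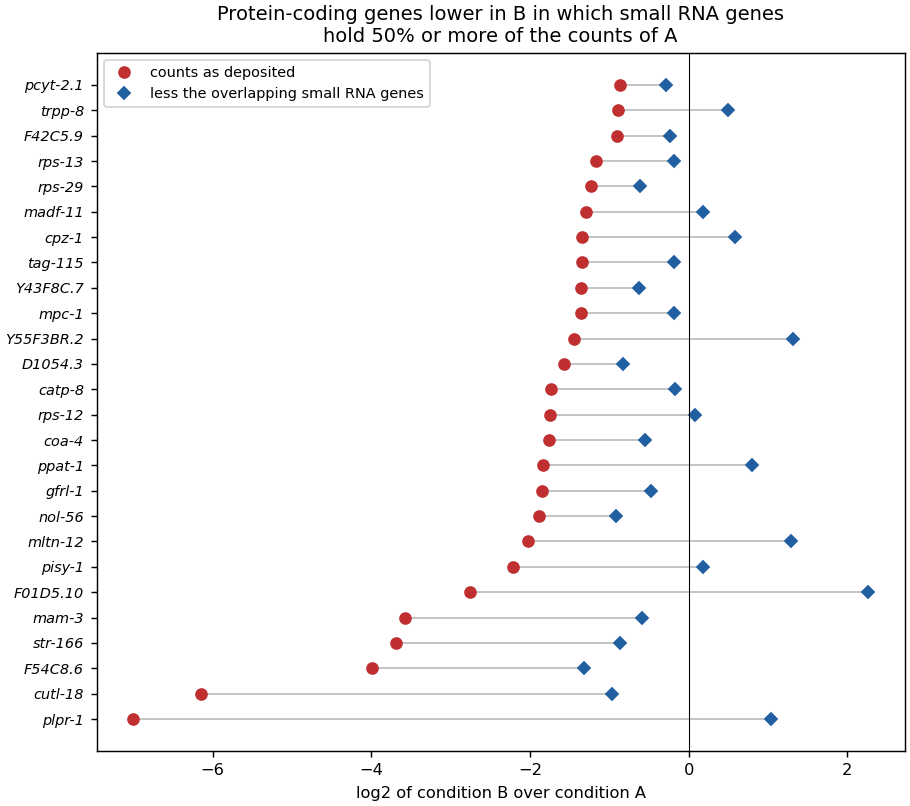
Log2 of condition B over condition A for the 26 protein-coding genes called lower in B whose overlapping small RNA genes hold 50% or more of the counts of A, as deposited (red circles) and with the counts of those small RNA genes taken off (blue diamonds). The circles have a median of -1.74 and the diamonds of -0.19, with the diamonds from -1.32 to 2.26.

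Several well-known genes were among these hosts. The ribosomal protein gene rps-12, which hosts 2 snoRNA genes, had a log2 of -1.75 as deposited and 0.08 with their counts taken off; the remainder was 2725 and 2726 in A against 2995 and 2779 in B. For rps-13, with 1 snoRNA gene, the values were -1.17 and -0.19. The gene nol-56, which encodes a core protein of snoRNA particles and itself hosts snoRNA genes, stayed lower with the remainder at 6886 and 7081 in A against 3611 and 3776 in B (log2 of -0.92, from -1.88). The cathepsin gene cpz-1 turned from -1.34 to 0.59, and mam-3, with 6 snRNA genes, moved from -3.57 to -0.59. Other hosts carried almost no small RNA counts: for wrt-9, a hedgehog-related gene, the remainder gave the deposited log2 of -1.50, and the same held for lgl-1 at -1.15. The neuronal gene unc-31, called lower with means of 143617 and 28606 in the authors' deposited table, overlaps 3 snRNA genes, and its counts per library could not be recovered.

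The snoRNA and snRNA genes themselves were lower in B as classes. The rRNA genes were also listed as lower in B. All 15 in the authors' deposited table, which are 5S copies and held 67.2% of the normalized counts of A, were called lower. Of these, 14 were at 0 in B, and rRNA came to 2.59% of the normalized counts of B. Of 130 snoRNA genes 59 were called lower and 1 higher (45.4% called lower, beside 4.27% of all genes), and 114 had a log2 below 0, with a median of -1.09. Among snRNA genes other than spliced leader genes, 28 of 68 were called lower, all 68 had a log2 below 0, and the median was -1.46. Summed over the 120 snoRNA genes with recovered counts, the libraries of A held 324399 and 383474 normalized counts and those of B held 128852 and 130181. Summed over 37 snRNA genes, they held 200623 and 232873 in A against 119297 and 54787 in B. Neither sum overlapped between the conditions, but the libraries of B differed more from each other for snRNAs than for snoRNAs. The snoRNA gene F17C11.14 was the exception, with 1669 and 1706 normalized counts in A and 3045 and 2726 in B (adjusted p = 0.00392 in the authors' deposited table). All 11 SL1 genes, which supply the leader joined to the start of many worm mRNAs, were at 0 in B, while the authors' deposited table gives them means of 26637 to 981924 normalized counts in A. The rRNA genes at 0 in B share this pattern, and whether the 0 in every copy reflects the amount of RNA was not tested. Of the 15 SL2 genes, whose leader is used for downstream operon genes, 2 were called lower, all 15 were below 0 and the median was -1.73. Transfer RNA genes had a median of 0.07, with 56 of 107 above 0, but 8 were called lower (7.48%) and 1 higher. By limma-voom 24 of them were lower and 3 higher, and 7 were at 0 in B. Their means summed to 31611 for A against 10113 for B. The 25 microRNA genes had 0 calls, with limma-voom calling 2 in each direction. Many of these genes have near-identical copies, among which the authors' counting could split reads. Whether the amount of small RNA carried through each library preparation moved with these values was not tested.

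Operons place genes head to tail at short distance, so genes were also grouped by their upstream neighbour in the annotation. Of 3005 protein-coding genes with a neighbour within 500 bases upstream on the same strand, 5.39% were called higher in B and 4.53% lower, with a median log2 of -0.03. Of 4600 with a same-strand neighbour farther away, 10.7% were called higher and 2.96% lower, with a median of 0.14. Where the neighbour lay on the opposite strand, 10.5% were called higher and 4.43% lower within 500 bases (2053 genes), and 9.64% and 3.37% beyond (4742 genes). The close same-strand genes thus had the smallest share of higher calls of the 4 arrangements; no test was run across genes, and distance does not show that genes share an operon. Expression level and function also differ between such groups, and their part in this was not tested.

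**Figure D4:**
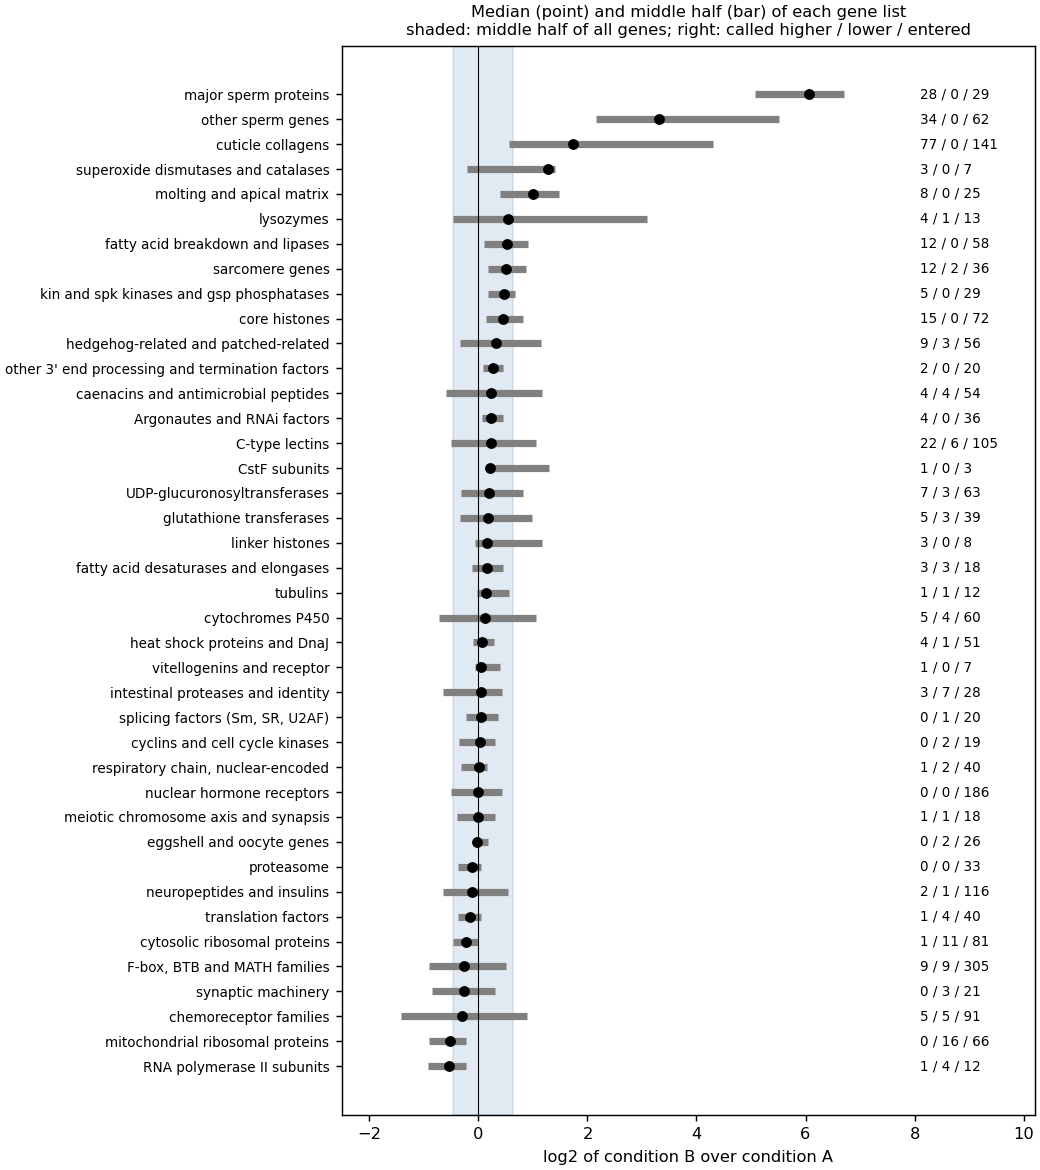
Median (points) and middle part from the 25th to the 75th percentile (bars) of log2 of condition B over condition A for the protein-coding gene lists with 3 or more genes entered (spliced leader genes are not drawn); the shaded band is the same range over all genes, and the figures at the right give genes called higher, called lower and entered. Of the lists drawn, major sperm proteins have the highest median at 6.06 and RNA polymerase II subunits the lowest at -0.53.

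Genes of sperm had the highest median log2 of B over A of the lists examined. Of 29 major sperm protein genes, which encode the cytoskeletal protein that drives crawling sperm, 28 were called higher and the median log2 was 6.06. The copy msp-19 had 81.2 and 32.1 normalized counts in A and 1962 and 2977 in B, a log2 of 5.45 (adjusted p = 3.73e-08 in the authors' deposited table). These genes are near-identical, so single copies are uncertain, but sperm genes with no such copies behaved likewise. For spe-11, a factor that sperm carry into the egg, the means were 2.01 in A and 125 in B (adjusted p = 1.93e-10 in the authors' deposited table). The Argonaute alg-3, which acts in sperm development, had 2.71 and 0 in A against 75.7 and 82.4 in B, and tag-76, listed by RefSeq as alg-4, had 0 and 4.01 in A and 110 in each library of B. Of 62 other sperm genes 34 were called higher and 0 lower, while limma-voom called 44 and 2. In RNA from whole animals, fewer cells of a type and less RNA per cell cannot be told apart.

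Markers of sperm were mostly called, and those of oocytes and germline mostly not. Of 10 sperm markers 9 were called higher in B, 4 were at 0 in A, and their means summed to 141 normalized counts in A and 4388 in B. Of 10 oocyte and germline markers 1 was called higher (glp-1, the germline stem cell receptor, log2 of 0.67) and 0 lower, and their sums were 64893 and 67819. The yolk receptor gene rme-2 had 9725 and 9900 normalized counts in A and 8824 and 9508 in B, and egg-1, a sperm-binding protein of the egg, had 4677 and 4448 in A against 4176 and 4587 in B; neither was called. Of 26 eggshell and oocyte genes 2 were called lower (7.69%, beside 4.27% of all genes), cey-3 (log2 of -0.95) and cpg-3 (-0.68). Of 18 genes of the meiotic chromosome axis and synapsis, syp-1 was called higher with 551 and 466 normalized counts in A and 976 and 813 in B. The axis gene htp-1 was called lower with 1264 and 1421 in A against 693 and 675 in B. The cyclin B genes cyb-2.1 and cyb-2.2 were both called lower, with log2 values of -0.83 and -0.79. Among linker histones his-24 was called higher with 265 and 185 normalized counts in A and 855 and 1004 in B.

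Of the gene lists examined, the cuticle collagens held the most genes called higher in B. Of 141 collagen genes 77 were called higher and 0 lower, with a median log2 of 1.74. At an unadjusted p under 0.05 there were 93 higher and 2 lower, and limma-voom called 85 higher and 6 lower. The largest difference among named protein-coding genes above 0 in both conditions was that of dpy-5, a cuticle procollagen, with 2.71 and 0 normalized counts in A and 1017 and 883 in B (log2 of 9.45, adjusted p = 7.21e-65 in the authors' deposited table). The collagen dpy-13 had 2.71 and 0 in A against 510 and 404 in B, and bli-1, a strut collagen of the adult cuticle, had 9.48 and 16.1 in A against 225 and 241 in B. Not all collagens were called higher: sqt-3 had 378 and 430 in A against 401 and 461 in B, where the conditions overlapped. The collagen dpy-7 was on the lower side without overlap, with 157 and 173 in A against 94.4 and 86.3 in B. Neither was called. Of 25 other molting and apical matrix genes 8 were called higher (32.0%, beside 8.54% of all genes). Among these the fibrillin-like gene fbn-1 had 222 and 245 in A against 1008 and 1094 in B. The gene mlt-11, a protease inhibitor needed for molting, had 231 and 245 in A against 973 and 928 in B. Relative to genes of like exon length the collagen median was 1.76, and the molting list's was 0.84 rather than 1.00.

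**Figure D5:**
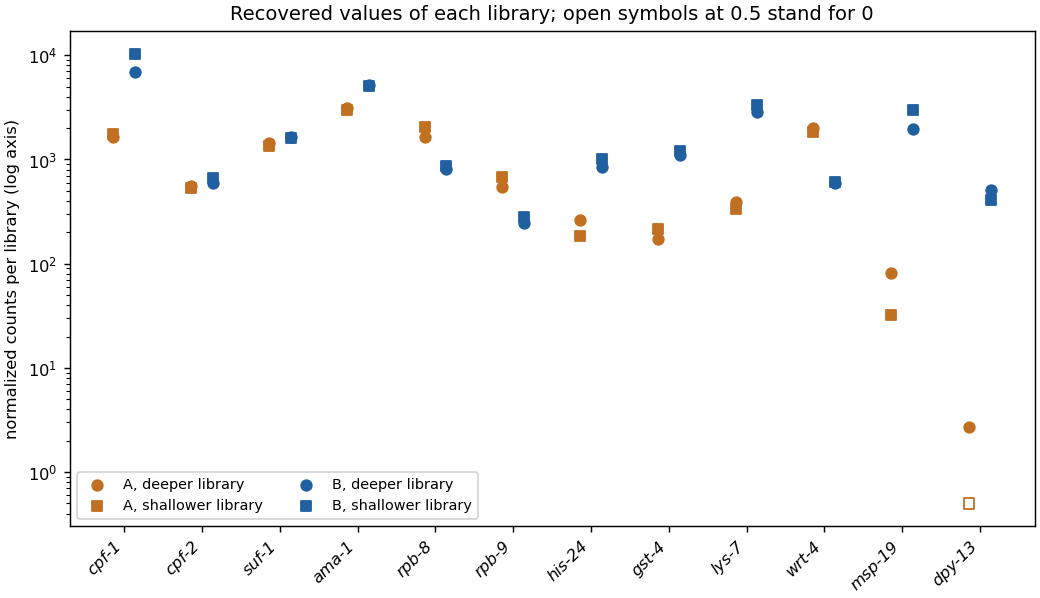
Normalized counts of each recovered library (log axis) for 12 genes named in the text, with condition A in orange and condition B in blue, circles for the deeper and squares for the shallower library; an open symbol at 0.5 marks a value of 0. The conditions do not overlap for any of the genes shown, including cpf-2 and suf-1, which were not called and differ least. The other genes shown were called, so this lack of overlap does not describe genes in general.

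Hedgehog-related genes, many of which are active in the hypodermis, were called in both directions. Of 56 entered, 9 were called higher (16.1%, beside 8.54% of all genes) and 3 lower (5.36%, near the 4.27% of all genes). The warthog gene wrt-4 had 1999 and 1835 normalized counts in A and 600 and 606 in B, a log2 of -1.67 (adjusted p = 1.34e-10 in the authors' deposited table), and wrt-1 and wrt-9 were also called lower. The ground-like gene grl-16 went up from 9.48 and 36.1 in A to 221 and 186 in B, and the patched-related gene ptr-22 from 17.6 and 20.1 to 127 and 154.

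Of 13 lysozyme genes 4 were called higher in B (30.8%, beside 8.54% of all genes) and 1 lower. The lysozyme lys-7, induced in the worm by several pathogens, had 395 and 333 normalized counts in A and 2863 and 3341 in B, an 8.52-fold difference (log2 of 3.09, adjusted p = 4.24e-27 in the authors' deposited table). Its relative lys-4 was called lower, with 1099 and 1261 in A against 572 and 725 in B. Of 105 C-type lectin genes 22 were called higher and 6 lower (5.71%). The called member with the lowest log2, clec-222, had 517 and 506 normalized counts in A and 25.3 and 24.7 in B (log2 of -4.35, adjusted p = 4.62e-28 in the authors' deposited table), and clec-52 had 13.5 and 0 in A against 199 and 245 in B. Among 54 caenacins and other antimicrobial peptide genes 4 were called in each direction (7.41%), close to the share of all genes for higher calls, with fip-6 at 9.48 and 8.03 in A against 389 and 443 in B, and fipr-4 at 218 and 237 in A against 33.0 and 29.9 in B.

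Among glutathione transferases, enzymes that conjugate toxic compounds, 5 of 39 were called higher and 3 lower (12.8% and 7.69%, beside 8.54% and 4.27% of all genes). The gene gst-4, a common reporter of oxidative stress in the worm, had 172 and 213 normalized counts in A and 1112 and 1203 in B, a log2 of 2.59 (adjusted p = 3.32e-21 in the authors' deposited table). The gene gst-9 had 40.6 and 44.2 in A against 401 and 434 in B, whereas gsto-1, an omega class enzyme, had 1443 and 1433 in A against 442 and 535 in B. The 3 catalase genes were called higher together, with log2 values of 1.38 for ctl-1, 1.41 for ctl-2 and 1.28 for ctl-3; they are close copies of each other, so their reads may be split. Of 60 cytochrome P450 genes 5 were called higher and 4 lower (8.33% and 6.67%, near the shares of all genes). Members of the CYP35 group were on the lower side, with cyp-35A3 at 464 and 546 in A against 124 and 96.1 in B. Of 63 UDP-glucuronosyltransferase genes 7 were called higher and 3 lower (11.1% and 4.76%, likewise near them).

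Of 58 genes of fatty acid breakdown and lipases 12 were called higher (20.7%, beside 8.54% of all genes) and 0 lower, with a median log2 of 0.53; limma-voom called 26 and 2. The acyl-CoA dehydrogenase gene acdh-8 had 1.35 and 0 normalized counts in A and 163 and 177 in B. Among 18 fatty acid desaturases, elongases and synthases 3 were called in each direction. The fatty acid synthase gene fasn-1 had 3670 and 3501 in A against 7675 and 8375 in B, and the desaturase gene fat-5 had 384 and 329 in A against 901 and 1015 in B. The elongase gene elo-5, which acts on branched-chain fatty acids, had 4633 and 4516 in A against 2386 and 2264 in B. In the intestine, where much of this takes place, the peptide transporter gene pept-1 was called lower with 1488 and 1449 in A against 626 and 716 in B. The cathepsin B-like gene cpr-1 was called higher with 1298 and 1196 in A against 2430 and 2774 in B. Most called members of its family went the other way: cpr-3, cpr-4, cpr-5 and cpr-9 were called lower. For cpr-3 the libraries held 1551 and 1265 in A against 557 and 689 in B. The members cpr-6 and cpr-8 were not called. The transcription factor gene elt-2, a marker of intestinal identity, held 100 and 84.3 in A against 99.9 and 101 in B.

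Genes of protein synthesis leaned to lower values in B. Of 66 mitochondrial ribosomal protein genes 16 were called lower and 0 higher, with a median log2 of -0.52, and relative to genes of like exon length the median was -0.42. Leaving out the 1 member that overlaps a small RNA gene left 15 of 65 called lower. The gene mrps-14 had 9742 and 9486 normalized counts in A and 3565 and 3410 in B, a log2 of -1.46 (adjusted p = 2.67e-10 in the authors' deposited table; limma-voom SE 0.06). Of 81 cytosolic ribosomal protein genes 11 were called lower and 1 higher (13.6% and 1.23%, beside 4.27% and 8.54% of all genes), with a median of -0.23. Among those that overlap no small RNA gene 7 of 69 were lower, and relative to like exon length the list's median was -0.07. Of 40 translation factors 4 were called lower, such as eif-1 with 4539 and 3822 in A against 2106 and 2801 in B, and eef-1A.2, a translation elongation factor, was called higher. Of 33 proteasome genes 0 were called in either direction in the authors' deposited table, with a median of -0.11. At an unadjusted p under 0.05 the authors' table had 0 higher and 6 lower, and limma-voom called 1 higher and 11 lower.

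Of 21 genes of the synaptic machinery 3 were called lower (14.3%, beside 4.27% of all genes) and 0 higher, with a median log2 of -0.27, or -0.70 relative to genes of like exon length. These were rab-3, snt-1 and unc-31, the last of which overlaps snRNA genes. The vesicle GTPase gene rab-3 had, in the authors' deposited table, a mean of 287 normalized counts in A against 108 in B, and snt-1, a synaptotagmin, had 368 and 430 in A against 164 and 147 in B. Not all neuronal genes lay on this side, since snb-1, a synaptobrevin, had 803 and 630 in A against 1289 and 2184 in B without a call. Of 116 neuropeptide and insulin genes 2 were called higher and 1 lower (1.72% and 0.862%, below the shares of all genes). The gene nlp-31, an antimicrobial neuropeptide-like gene of the epidermis, had 96.1 and 100 in A against 554 and 421 in B. Among 91 entered genes of chemoreceptor families 5 were called in each direction (5.49%, beside 8.54% higher and 4.27% lower of all genes). The receptor gene str-238 had 329 and 265 in A against 3359 and 3250 in B, an 11.1-fold difference (adjusted p = 7.35e-48 in the authors' deposited table). The lower receptors str-166 and str-172 overlap snRNA genes, and with those counts taken off str-166 was left with 4.06 and 0 in A against 0.275 and 1.95 in B.

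Nuclear hormone receptors, a large family of ligand-regulated transcription factors, had 0 calls among 186 genes in the authors' deposited table, with a median log2 of -0.01. At an unadjusted p under 0.05 the authors' table had 6 higher and 5 lower, and limma-voom called 10 higher and 19 lower. In the RNAi machinery, 4 of 36 Argonaute and RNAi factor genes were called higher (11.1%, beside 8.54% of all genes) and 0 lower. Beside alg-3 and tag-76, rrf-2, one of the RNA-dependent RNA polymerases, had 62.3 and 76.3 normalized counts in A and 344 and 378 in B (log2 of 2.38, adjusted p = 9.23e-09 in the authors' deposited table). The list's median was 0.24, and it was -0.01 relative to genes of like exon length. Of 51 heat shock protein and DnaJ genes 4 were called higher and 1 lower (7.84% and 1.96%, beside 8.54% and 4.27% of all genes). Among them hsp-70 was at 284 and 293 in A against 676 and 790 in B.

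The most abundant protein-coding transcripts differed little. By mean normalized count in the authors' deposited table the histone genes his-46 and his-56 stood at 755574 and 750486 in A and at 844630 and 848895 in B. In A the yolk protein genes vit-4, vit-3 and vit-5 followed, and in B vit-4, vit-3 and the histone gene his-14; vit-4 stood at 486314 in A and 504376 in B, and none of these genes was called. Of 72 core histone genes 15 were called higher (20.8%, beside 8.54% of all genes) and 0 lower, with a median log2 of 0.45. Most are near-identical copies, and reads could be split among them.

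Of 7 vitellogenin and yolk receptor genes only vit-2 was called, higher with a log2 of 0.57. Of 40 nuclear-encoded respiratory chain genes 1 was called higher (2.5%, below the 8.54% of all genes) and 2 lower (5.0%, near the 4.27% of all genes). One of the lower ones was ucr-11, a subunit of the cytochrome bc1 complex, with 964 and 723 normalized counts in A against 283 and 306 in B. Of 12 tubulin genes tba-6 was called higher (log2 of 2.54) and tbb-4 lower (-1.61); without the deeper library of A, tba-6 was no longer called by limma-voom (adjusted p = 0.0504). Of 28 intestinal protease and identity genes 3 were called higher (10.7%, beside 8.54% of all genes) and 7 lower, where 4.27% of all genes were. The F-box, BTB and MATH families had 9 calls in each direction among 305 genes (2.95%, below both shares of all genes). Of 29 genes for kin and spk kinases and gsp phosphatases, 5 were called higher (17.2%, beside 8.54% of all genes) and 0 lower. These were gsp-3, gsp-4, kin-5, kin-21 and kin-24, all with a mean of 0 in A. Among tissue markers, 4 of 8 for hypodermis and 5 of 7 for muscle were called higher and 0 lower, 2 of 8 for intestine were called in each direction, and 1 of 7 for neurons was called lower. Their median log2 was 0.67 for hypodermis, 1.15 for muscle, 0.34 for intestine and -0.64 for neurons, where 2 of 7 were above 0. Their means summed to 6434 normalized counts in A and 11212 in B for hypodermis, and to 11776 and 32020 for muscle. The sums were 377321 and 544801 for intestine, mostly from vit-2 and vit-6, and 3280 and 3931 for neurons. The neuron sum rose although most members were lower, with snb-1, not called, at means of 716 in A and 1737 in B. The hypodermis marker rol-6 was at 0 in A.

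By chromosome, the share of entered genes called higher in B ran from 6.82% on chromosome III to 11.2% on IV, and the share called lower from 3.10% on X to 4.85% on IV. Of the 2130 called genes 1106 had also been tested in poly(A) RNA, where 336 of them were called. These are 30.4% of the rRNA-depleted calls and 23.7% of the poly(A) calls among the 8154 genes tested in both, while 17.4% of those genes were called in poly(A) RNA and 13.6% in rRNA-depleted RNA. Directions were not compared, because the conditions here are not assigned to groups.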

How the data were processed

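RNA from young adults had been extracted with Trizol and depleted of rRNA, per the labels' protocols. The submitters' processing notes name the build ce10, Bowtie and DESeq, without versions; the counter is not given in the sources used here, and neither is its annotation. For each gene the authors deposited, per the file headers, a mean normalized count per condition (a signal scaled by size factors), a ratio of the means (fold change) and its log2, with a p-value before and after adjustment. Where 118 gene names repeat, their values are identical and were used once. Symbols came from the authors' deposited poly(A) table (FPKM, log2 fold change, p-value and q-value per gene; levels not compared). Loci are 1-based on ce10. Class, exon length and overlaps came from the Ensembl annotation of WBcel235, which matched 98.3% of the genes entered.

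The log2 of B over A was computed from the means. A mean of 0 was set to the floor of 3 counts over both libraries, 3.04 normalized counts in A and 0.58 in B, so such folds are bounds that cover counting error only. Whole counts per library were recovered from the means by search up to 30000, within 0.6 units of the last printed digit and only where the solution was unique. This gave size factors of 0.7388 and 0.2491 for A, and of 3.632 and 1.541 for B. All of 25640 simulated means were recovered for A and 25399 for B, with 0 wrong. Recovered counts were tested with limma-voom (limma 3.58.1, R 4.3.3, Benjamini-Hochberg adjustment); the main call is the authors' DESeq adjusted p under 0.05. Depth cannot be read from recovered counts, because the most abundant genes are missing from them.

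The members, the 42 gene lists and the tests were chosen with earlier results of these data known. Lists were given by counts and medians with no test. Genes were named where they were CstF genes, the 10 called protein-coding genes with the largest differences in each direction and 100 or more normalized counts, the 5 with the highest means, or up to 3 called members per list, class and direction; other named genes, such as list markers and genes not called, were chosen after their values were seen. Genes of the mitochondrial genome were not analysed here.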

Additional observations from a re-analysis of the deposited data

How the results depend on the processing

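With limma-voom on recovered counts 3254 genes were higher in B and 2597 lower, and with its scaling taken from protein-coding genes 3193 and 2651. Leaving out each library in turn gave 1324 to 4234 higher and 1274 to 3351 lower, a lone library being assumed to vary like the other condition; the fewest of both came without the deeper library of A. Adjusting the authors' p over the genes entered gave 1572 and 832, and leaving out protein-coding genes that overlap small RNA genes, chosen after seeing the data, 1377 and 663. The median log2 was 0.05 without genes at 0 in a condition and 0.05 with a minimum of 100. Most named genes were picked by a call from the same libraries, and limma-voom called more genes in all, so a kept call is no independent support. Of 182 named values tested by limma-voom 181 kept call and direction and T10E10.9 did not (adjusted p = 0.0509). Without the deeper library of A 14 were no longer called: sls-2.1 (adjusted p = 0.0563), hil-2 (0.136), rla-2, eif-3.K, tba-6, asp-17, asp-12, ugt-31, ugt-46, elo-2, srd-64, fbxc-39, bath-25 and T01C8.10; 0 were reversed. Of 82 list counts 22 stayed within 1.5 times under limma-voom. Relative to genes of like exon length the sign of the median changed for 4 lists (3' end factors, vitellogenins, Argonautes, cyclins). Relative to the median protein-coding gene it changed for 6 (splicing factors, vitellogenins, respiratory chain, heat shock, intestinal, cyclins). No paired analysis was possible because the table has no column per library and the recovered libraries carry no replicate number. The shallower library of A has the smallest size factor, so 1 read weighs most there and low values of A are coarse.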
